A study of Homo sapiens with 8 samples.

Results

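Called binding regions of SMAD2 and TEAD4 were described around T, EOMES, MIXL1 and GSC, 4 genes that mark the mesendoderm. The regions came from chromatin immunoprecipitation followed by sequencing (ChIP-seq) in the established line WA09 (human embryonic stem cells), kept on Matrigel in medium conditioned by mouse embryonic fibroblasts (MEF) with KO-serum. Cells had received DMSO or 10 µM SB431542 for 4 h. SB431542 blocks the kinase activity of the type I receptors for activin, Nodal and TGF-β. The labels give 8 groups with 1 library each, and lists of 3 groups were used: SMAD2 from DMSO cells, and TEAD4 from cells with either agent. SMAD2 in SB431542, the inputs and the normal rabbit IgG precipitates were not analysed here, and no measure of cell identity was used.

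A region was counted when it touched an hg19 gene body extended by 50 kb on both sides. This gave 162 of the 972037 regions in the lists: 58 of 420548 for SMAD2, 51 of 289380 for TEAD4 in DMSO and 53 of 262109 for TEAD4 in SB431542. EOMES had 51 of them, GSC 41, T 36 and MIXL1 34. The gene bodies were chr6:166571146-166582157 for T (now named TBXT), chr3:27757440-27764206 for EOMES, chr1:226411319-226414756 for MIXL1 and chr14:95234560-95236499 for GSC. MIXL1 is read from the plus strand and the other genes from the minus strand. Across the 12 combinations of gene and list, the outermost region counted lay between 37.9 and 50 kb from the gene, and the first one left out between 50.6 and 62.1 kb.

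The mesendoderm is the transient precursor of mesoderm and endoderm, formed in the primitive streak. Nodal and activin drive its formation: their receptors phosphorylate SMAD2 and SMAD3, which enter the nucleus with SMAD4 and are brought to DNA by partners such as FOXH1 and EOMES. T and EOMES encode T-box factors, needed for mesoderm and for definitive endoderm respectively. MIXL1 and GSC (goosecoid) encode paired-type homeodomain factors of the streak and of the organizer. TEAD4 is a DNA-binding partner of YAP and TAZ, the effectors of the Hippo pathway, and in stem cells these proteins have been linked to SMAD2 and SMAD3 at shared enhancers.

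The bases just before the gene starts are shown because every distance below is counted from a start, and because activin-responsive elements of goosecoid and Mix genes were mapped close to their starts in vertebrate embryos. RefSeq promoter windows on GRCh38.p14 matched all 4 genes. They were used for their letters only, since the regions are on hg19, where the annotated gene lengths differ slightly (1940 bp for GSC in hg19 and 1891 bp in GRCh38, 3438 and 3397 bp for MIXL1). Each line holds the 250 bases before the start, 5′ to 3′ along the gene. Capitals mark the 5-base SMAD box GTCTG or CAGAC and the FOXH1 motif AATNNACA or its reverse complement TGTNNATT.
MIXL1 (chr1:226223414-226223663, plus strand): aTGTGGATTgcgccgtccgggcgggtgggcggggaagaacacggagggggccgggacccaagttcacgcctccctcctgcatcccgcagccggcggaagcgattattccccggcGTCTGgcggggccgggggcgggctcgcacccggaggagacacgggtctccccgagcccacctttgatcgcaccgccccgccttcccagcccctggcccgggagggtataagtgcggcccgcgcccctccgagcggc
GSC (chr14:94770114-94770363, minus strand): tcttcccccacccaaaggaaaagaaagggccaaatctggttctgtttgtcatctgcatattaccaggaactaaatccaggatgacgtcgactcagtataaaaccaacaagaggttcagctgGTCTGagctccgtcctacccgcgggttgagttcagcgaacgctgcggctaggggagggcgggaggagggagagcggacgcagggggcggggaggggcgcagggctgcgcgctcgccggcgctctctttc
T (chr6:166168656-166168905, minus strand): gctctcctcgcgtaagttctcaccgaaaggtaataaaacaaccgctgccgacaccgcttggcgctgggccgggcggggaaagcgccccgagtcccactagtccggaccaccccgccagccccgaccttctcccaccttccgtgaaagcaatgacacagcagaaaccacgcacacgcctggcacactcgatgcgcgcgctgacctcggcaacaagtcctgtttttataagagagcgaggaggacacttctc

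The MIXL1 bases held the FOXH1 letters 249 to 242 bases before the start and a SMAD box at 136 to 132. The GSC bases held a SMAD box at 129 to 125 and no FOXH1 letters, and the T bases held neither. The TEAD motif CATTCC and the T-box letters TCACACCT, searched on both strands, were in none of these 3 stretches. Of 35116 RefSeq windows, 38.0% held the SMAD box in the same 250 bases, 9.88% the FOXH1 letters, 11.9% the TEAD letters and 0.786% the T-box letters, on either strand. The shorter box AGAC or GTCT, which overlaps the 5-base box, was in 77.5% of windows, and of the 3 stretches shown in those of MIXL1 and GSC. For EOMES the table's start lies 390 bp inside the gene, and a second start of T lies 804 bp inside, so their bases are not printed. The window at the inner T start held SMAD boxes at 148 to 144 and 131 to 127 bases before it, and the EOMES window held none of the letters searched. No bases of the called regions are shown because a sequence of hg19 was not used here.

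The lists hold positions only, so neither a height nor a read depth was known and no level of binding was computed. A single library per group leaves every value below without replicate error and without a test between conditions. All starts in the DMSO lists fall on multiples of 50 bp, against 1.97% in the SB431542 list, so these lists were made differently and treatment and list type cannot be told apart. Row order was taken as the authors' ranking, with the first row strongest, because regions narrow down each list, though no label states it. The order has large blocks sorted by position: in 91.9% of neighbouring rows of the TEAD4 list in DMSO both lay on the same chromosome, and in 99.97% of these the next start was lower. The figures were 75.3% for SMAD2 and 85.1% for TEAD4 in SB431542, against 5.25% from chromosome shares alone in both. Within such a sorted run a row number reports position and not rank. The longest run took up 3.84% of the TEAD4 rows in DMSO, 2.14% of the SMAD2 rows and 0.679% of the SB431542 rows, so a place in a list is uncertain by up to those amounts.

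**Figure D1:**
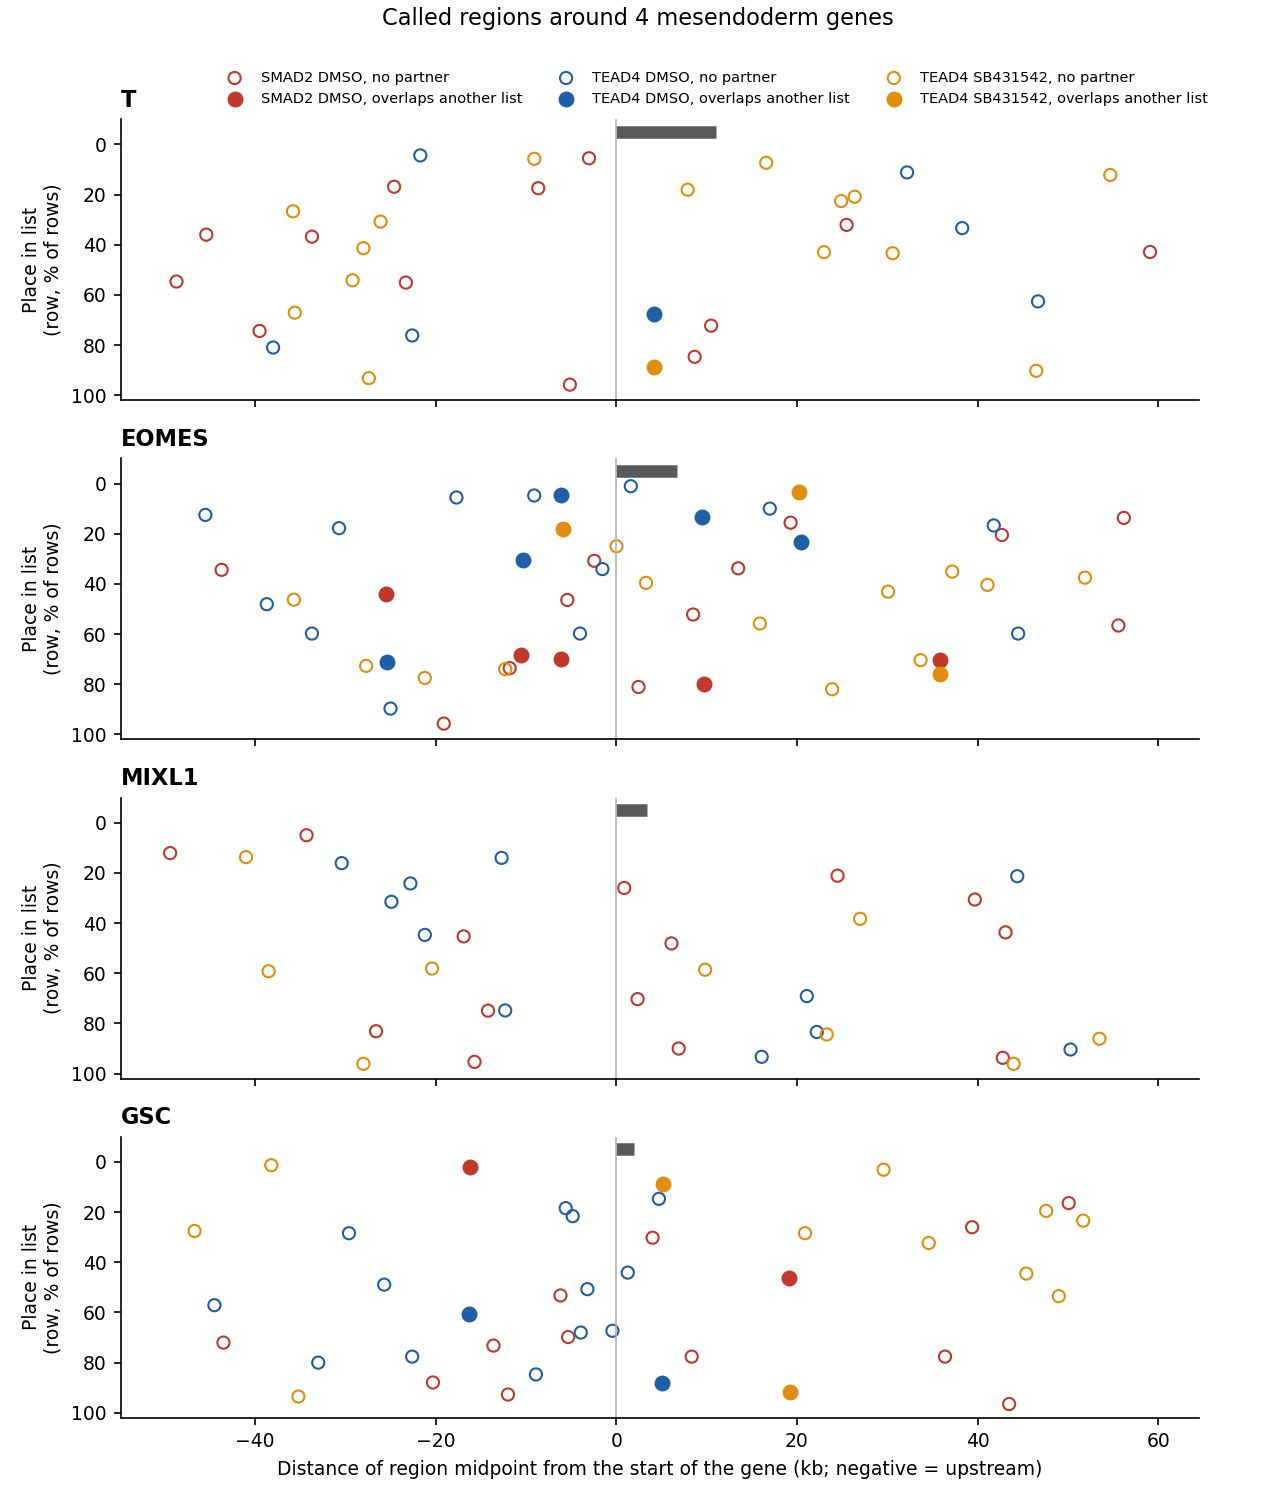
Midpoints of the 162 regions by distance from the start of each gene (kb, upstream negative) and by place in their list (row as % of all rows, first rows at the top). Filled points overlap a region of another list, grey bars are gene bodies, and EOMES has most filled points while MIXL1 has none.

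TEAD4 regions of DMSO cells were close together at EOMES and GSC and sparse at T, but in the 50 kb windows each of the 12 densities had an interval that included the mean of its list. EOMES held 18 TEAD4 regions in DMSO, 16.9 per 100 kb (exact 95% Poisson interval 9.99 to 26.6). This was 1.65-fold (0.980 to 2.61) the mean of 10.2 over 28363 stretches of 100 kb with at least 1 region of any list. Of these stretches 6.60% were as dense or denser, so EOMES stood in the dense tail of the genome without being outside it. GSC had 15 TEAD4 regions in DMSO (1.44-fold, 0.808 to 2.38), MIXL1 11 (1.04-fold, 0.521 to 1.87) and T 7 (0.618-fold, 0.249 to 1.27). In closer windows TEAD4 in DMSO exceeded its mean at GSC, 4.02-fold (1.84 to 7.64) within 10 kb and 2.34-fold (1.12 to 4.30) within 20 kb, and at EOMES, 2.10-fold (1.01 to 3.86) within 20 kb. With the first 50% of rows EOMES gave 2.39-fold (1.27 to 4.08). Of 72 densities under other settings, 7 had an interval above 1 and 0 below. The 50 kb intervals of the 4 genes overlap, and all intervals treat regions as independent although the stretches varied more than counting allows (SD 4.04 around 10.2).

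SMAD2 was near its mean of 14.8 per 100 kb at each gene. It had 17 regions at EOMES (1.08-fold, 0.628 to 1.73), 14 at GSC (0.929-fold, 0.508 to 1.56), 14 at MIXL1 (0.916-fold, 0.501 to 1.54) and 13 at T (0.793-fold, 0.422 to 1.36). TEAD4 in SB431542 had 16 regions at T (1.56-fold, 0.893 to 2.54) and 16 at EOMES (1.62-fold, 0.928 to 2.64). It had 12 at GSC (1.28-fold, 0.659 to 2.23) and 9 at MIXL1 (0.943-fold, 0.431 to 1.79). With the first 50% of rows TEAD4 in SB431542 at T was 2.15-fold (1.07 to 3.85), and within 100 kb at EOMES 1.57-fold (1.06 to 2.25). T had 7 TEAD4 regions in DMSO and 16 in SB431542, whereas within 10 kb the lists were furthest apart in number at GSC, with 9 and 1. The different making of the lists stands beside both differences. All 4 genes together gave 0.928-fold (0.704 to 1.20) for SMAD2, 1.18-fold (0.880 to 1.55) for TEAD4 in DMSO and 1.36-fold (1.02 to 1.78) for TEAD4 in SB431542.

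**Figure D2:**
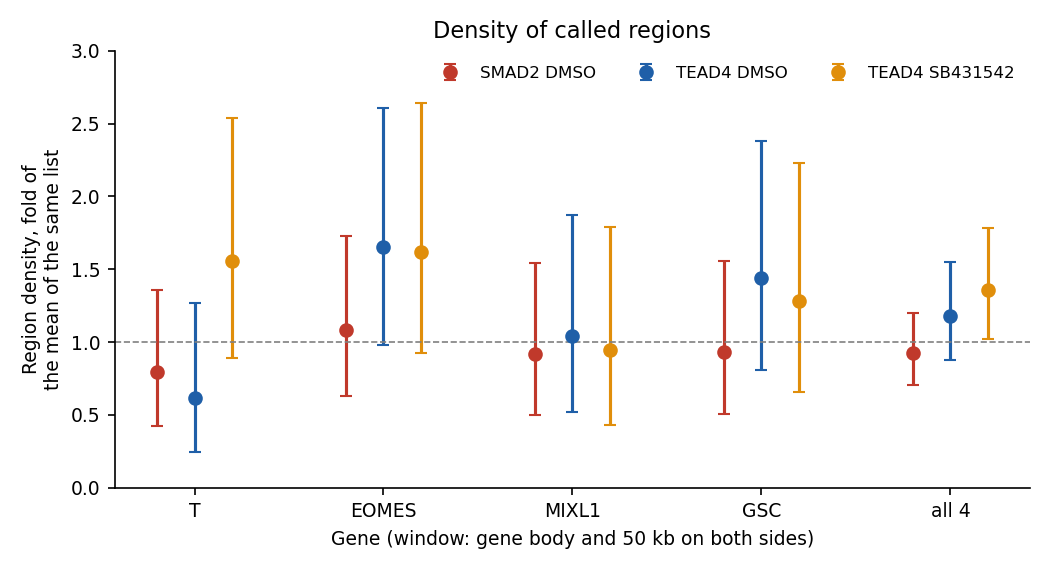
Region density in the 50 kb windows, as fold of the mean density of the same list (y axis), by gene and for the 4 genes together. Points are 1 list each, bars are exact 95% Poisson intervals for counting error, and each bar of a single gene includes 1, shown as the dashed line.

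EOMES, the T-box factor of the endoderm lineage, had the region with the earliest TEAD4 row of the set. This TEAD4 region in DMSO was row 3079 (1.06% of rows, in a sorted run from 1.02 to 1.12%) and lay inside the gene at chr3:27762451-27762749, centred 1.61 kb after the start. It was 299 bp wide and had no partner: the nearest SMAD2 region was 651 bp away and the nearest TEAD4 region of SB431542 cells 1368 bp away. Of the 18 TEAD4 regions at EOMES in DMSO, 5 were in the first 10% of rows (27.8%, 95% Wilson interval 12.5 to 50.9%), against 10.0% by construction over the list. One of these, row 28902, sits in a run that crosses the limit. When it was not counted as inside the limit, the share was 4 of 18 (22.2%, 9.0 to 45.2%), an interval that includes 10.0%. The other TEAD4 regions in the first 10% of rows at EOMES, rows 12982, 13772 and 16102, lay 6.07, 9.09 and 17.7 kb upstream. The median place of the 18 was 20.5% of rows. It was 52.2% for the 17 SMAD2 regions there and 44.7% for the 16 TEAD4 regions in SB431542. Of those SMAD2 regions 0 were in the first 10% (interval up to 18.4%, which includes 10.0%). The earliest of them was row 57450 (13.7%), 56.2 kb downstream.

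The widest region of the set lay upstream of EOMES and was the only one that overlapped both other lists. It was the TEAD4 region in DMSO at chr3:27769901-27770649, row 12982, 749 bp wide, which 0.0556% of the regions in its list equal or exceed. A SMAD2 region of 99 bp (chr3:27770251-27770349, row 293561, 69.8% of rows) and a TEAD4 region in SB431542 of 172 bp (chr3:27770064-27770235, row 47320, 18.1%) both fell wholly inside it. Those smaller regions did not touch each other and were 15 bp apart. A second SMAD2 region, chr3:27769551-27769699, ended 201 bp from the wide TEAD4 region. The position thus carried 1 region of each list within 749 bp, with TEAD4 far earlier than SMAD2 in row order. The share of the whole list that overlaps both other lists was not computed, so this single case is a description only. The median width in that list was 199 bp, and a wider region has more bases in which to meet another.

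Elsewhere at EOMES, SMAD2 and TEAD4 in DMSO met at 3 further places, each by 49 bp, which is a single step of the 50 bp grid. They lay 9.66 kb downstream of the start (SMAD2 row 335708, TEAD4 row 38827), 10.5 kb upstream (SMAD2 row 286718, TEAD4 row 87828) and 25.5 kb upstream (SMAD2 row 185418, TEAD4 row 205998). TEAD4 regions of both treatments met a second time 20.2 kb downstream, by 27 bp, where the SB431542 region chr3:27743923-27744089 was row 8579 (3.27%), the earliest of that list at EOMES. Its DMSO partner was row 67329 (23.3%). SMAD2 row 295992 and SB431542 row 198670 overlapped by 40 bp at 35.9 kb downstream.

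Close to EOMES itself, the start used here, which is the 5′ end of the hg19 gene body, was covered in 1 list only. The TEAD4 region in SB431542 at chr3:27764118-27764252 (row 65529, 25% of rows) spanned this end and reached 88 bp into the gene. The RefSeq start on GRCh38 lies deeper, 390 bp inside the gene. In DMSO the nearest TEAD4 region ended 1445 bp upstream (chr3:27765651-27765849, row 98665) and the nearest SMAD2 region 2345 bp upstream (chr3:27766551-27766749, row 129700). Inside the gene lay a SMAD2 region of 99 bp, 2.46 kb after the start (row 341036), and a second SB431542 region 3.29 kb after it (row 103858). The remaining regions within 5 kb of the gene were TEAD4 row 173018 in DMSO, 4.02 kb upstream, and SMAD2 row 219430 and the pair at SMAD2 row 335708, past the gene's end.

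GSC, the homeobox gene of the organizer, was ringed by TEAD4 regions in DMSO. Within 10 kb of the gene there were 9 of them, with 4 SMAD2 regions and 1 TEAD4 region in SB431542. None of the 15 TEAD4 regions in DMSO in the full window was in the first 10% of rows. The interval reached 20.4%, so this is not distinguishable from 10.0%. Their median place was 57.1%. The region nearest the start, chr14:95236751-95237099, lay 252 to 600 bp upstream and was row 194720 (67.3%). A region inside the gene, chr14:95235101-95235349, was row 127539 (44.1%). Further ones followed upstream at 3.20 kb (row 146639), 3.93 kb (row 196729), 4.83 kb (row 62574) and 5.60 kb (row 53137), and downstream at 4.72 kb (row 42470, the earliest of this list at GSC) and 5.05 kb (row 254691). No SMAD2 region lay in the gene body, and the nearest to the start was 3950 bp downstream (chr14:95232401-95232549, row 126867).

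The earliest SMAD2 row of the whole set was also at GSC. This region, chr14:95252551-95252799, was row 7907 (1.88% of rows) and lay 16.2 kb upstream. It overlapped TEAD4 in DMSO by 99 bp at chr14:95252701-95252849, a region far down its list (row 175292, 60.6%, in a run of 8939 rows). At EOMES the wide region showed the opposite order, with TEAD4 early and SMAD2 late. The remaining 13 SMAD2 regions at GSC ranked later, and the median of all 14 was 70.9% of rows.

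TEAD4 in SB431542 had its earliest rows of the set at GSC. Row 3423 (1.31%) lay 38.2 kb upstream at chr14:95274590-95274787, 5040 bp from any TEAD4 region in DMSO, and row 8084 (3.08%) lay 29.6 kb downstream. Of the 12 regions 3 were in the first 10% of rows (25%, 8.89 to 53.2%), and the median place was 27.9%. The third of these, row 22537 at chr14:95231252-95231442, was also the one nearest the start, 5057 bp downstream, and overlapped TEAD4 row 254691 of DMSO cells by 42 bp. SMAD2 row 194007 overlapped SB431542 row 240436 by 56 bp at 19.1 kb downstream. Most TEAD4 regions at GSC were on different sides: 12 of 15 in DMSO were upstream of the start and 9 of 12 in SB431542 downstream. SMAD2 had 7 upstream and 7 downstream. No share of sides over the whole lists is given here, and the different making of the TEAD4 lists stands beside their difference.

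At T, the brachyury gene of the nascent mesoderm, 0 of 13 SMAD2 regions overlapped TEAD4 in either treatment. The interval reached 22.8%, and the whole-list shares were 5.29% in DMSO and 3.39% in SB431542, so this is not distinguishable from the lists. The earliest SMAD2 region, chr6:166585001-166585349, was row 23327 (5.55%), 349 bp wide and 3.02 kb upstream of the start. It was the SMAD2 region nearest to the start, and 2.06% of the list is as wide or wider. The nearest TEAD4 region in DMSO was 6951 bp away from it. Inside the gene lay SMAD2 rows 304036 and 356018, 10.5 and 8.68 kb after the start. The closest approach of SMAD2 to TEAD4 in DMSO was 501 bp, about 23 kb upstream.

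TEAD4 in DMSO had 1 region within 20 kb of T, and it was the only one called again in SB431542 at this gene. It lay inside the gene, 4.21 kb after the start, at chr6:166577851-166578049 (row 195648, 67.6%), and held the SB431542 region chr6:166577897-166578013 (row 232213, 88.6%) completely. Their midpoints were 5 bp apart, the closest match of the set, although both were late in their lists. The earliest TEAD4 row in DMSO was 12759 (4.41%), 21.7 kb upstream. In SB431542 the earliest were row 15154 (5.78%), 9.08 kb upstream and 236 bp from SMAD2 row 73745, and row 19263 (7.35%), 16.6 kb downstream and 259 bp wide. A second SB431542 region inside the gene was row 47486, 7.90 kb after the start.

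MIXL1, the paired-type homeobox gene of the streak, had no overlap between lists among 14 SMAD2, 11 TEAD4 DMSO and 9 TEAD4 SB431542 regions. With upper limits of 21.5 to 29.9% against whole-list shares of 3.39 to 7.67%, this is not distinguishable from the lists. SMAD2 had 2 regions inside the gene, chr1:226412101-226412299 (row 109394, 26.0%), 782 to 980 bp after the start, and chr1:226413601-226413749 (row 295525, 70.3%). Rows 202159 and 378670 followed 6.11 and 6.91 kb after the start. The SMAD2 region 782 bp after the start was the closest of this list to any of the 4 starts. The earliest SMAD2 row, 20881 (4.97%), lay 34.3 kb upstream at chr1:226376901-226377049.

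No TEAD4 region in DMSO lay within 10 kb of MIXL1, a density whose interval of 0 to 1.54-fold includes the list mean. The nearest to the start was 12220 bp upstream (row 216474), and the earliest, row 40634 (14%) at chr1:226398401-226398849, lay next to it at 12.7 kb and was 449 bp wide. In SB431542 the nearest was 9779 bp downstream (row 153654) and the earliest row 35974 (13.7%), 41.0 kb upstream. Neither TEAD4 list had a region at MIXL1 in its first 10% of rows. With 0 of 11 in DMSO (interval up to 25.9%) and 0 of 9 in SB431542 (up to 29.9%), this is not distinguishable from 10.0%. The lists came nearest to each other 44 kb downstream, where TEAD4 row 61735 of DMSO cells and row 251973 of SB431542 cells were 91 bp apart. ACBD3 and LIN9 also lie within 50 kb of MIXL1 in the GRCh38 annotation, whereas the other 3 genes have no coding neighbour that close.

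**Figure D3:**
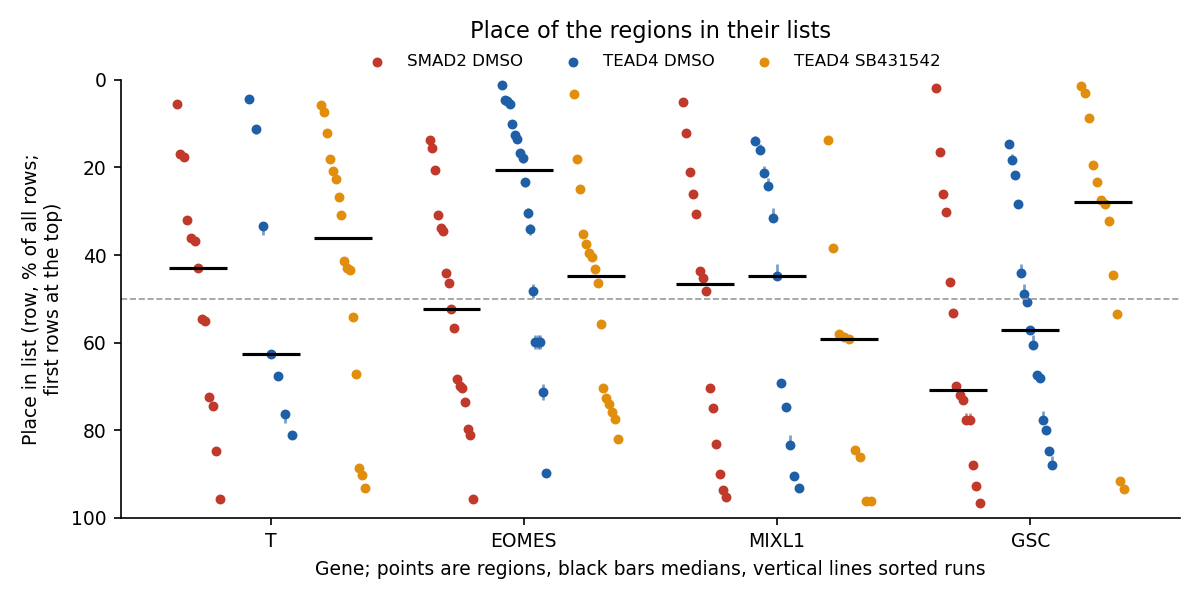
Place of each region in its list (y axis, row as % of all rows, first rows at the top) by gene. Points are regions, vertical lines the sorted runs they sit in, black bars the medians, and the TEAD4 regions of DMSO cells at EOMES have the median nearest the top, 20.5%.

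By place in the lists, the 4 genes together were close to the whole lists. Of the SMAD2 regions 3 of 58 (5.17%, 1.77 to 14.1%) were in the first 10% of rows, of TEAD4 in DMSO 6 of 51 (11.8%, 5.51 to 23.4%) and of TEAD4 in SB431542 6 of 53 (11.3%, 5.29 to 22.6%), against 10.0% in each list. The median places were 52.7, 44.7 and 43.0% of rows. Among the 12 combinations of gene and list, the interval of TEAD4 in DMSO at EOMES alone lay above 10.0%. None did when the row in the run across the limit was not counted as inside it.

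SMAD2 and TEAD4 of DMSO cells met at 5 places near these genes, 4 at EOMES and 1 at GSC. Of the 58 SMAD2 regions 5 overlapped TEAD4 (8.62%, 3.74 to 18.6%), against 5.29% of all SMAD2 regions. Of the 51 TEAD4 regions 5 overlapped SMAD2 (9.80%, 4.26 to 21.0%), against 7.67% of the list. Over the 4 genes the shares were therefore near those of the whole lists. At EOMES they were 4 of 17 (23.5%, 9.56 to 47.3%) and 4 of 18 (22.2%, 9.0 to 45.2%), the only intervals above the whole-list share among 24 such shares. At T, 0 of 13 SMAD2 regions overlapped (interval up to 22.8%) and at MIXL1 0 of 14 (up to 21.5%), which is not distinguishable from 5.29% with so few regions. When 50% of both regions had to be shared, the count over the 4 genes was 0 of 58. The interval reached 6.21%, which includes the 1.72% of the list.

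TEAD4 regions called in both treatments numbered 4: 2 at EOMES, 1 at T and 1 at GSC. This was 7.84% of the 51 DMSO regions (3.09 to 18.5%), against 5.69% of the list, and 7.55% of the 53 SB431542 regions (2.97 to 17.9%), against 6.39%. With 50% of both regions required, the region inside T was the one left. SMAD2 overlapped TEAD4 of SB431542 cells at 2 places, which were 2 of 58 SMAD2 regions (3.45%, 0.951 to 11.7%, list 3.39%) and 2 of 53 SB431542 regions (3.77%, 1.04 to 12.8%, list 5.46%). Over the 50 kb windows these shares were near the whole-list values. Between the TEAD4 lists the shares were higher closer to the genes. Within 10 kb they were 3 of 16 DMSO regions (18.8%, 6.59 to 43.0%) and 3 of 10 SB431542 regions (30.0%, 10.8 to 60.3%). Within 20 kb 4 of 20 SB431542 regions overlapped (20.0%, 8.07 to 41.6%). These intervals lay above the list shares but rest on 3 or 4 regions. Within 100 kb the shares between the TEAD4 lists were 4.88% (1.91 to 11.9%) and 4.17% (1.63 to 10.2%), not distinguishable from the list shares. SMAD2 with TEAD4 in DMSO also had higher shares closer to the genes. They were 10.0% within 10 kb (2.79 to 30.1%) and 12.5% within 20 kb (4.97 to 28.1%), list 5.29%. The reverse gave 12.5% (3.50 to 36.0%) and 15.4% (6.15 to 33.5%), list 7.67%. Each of these intervals includes the list share. SMAD2 with TEAD4 in SB431542 was 0 of 20 and 0 of 10 within 10 kb (upper limits 16.1 and 27.8%). A region absent from a list is not a measured loss of binding.

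**Figure D4:**
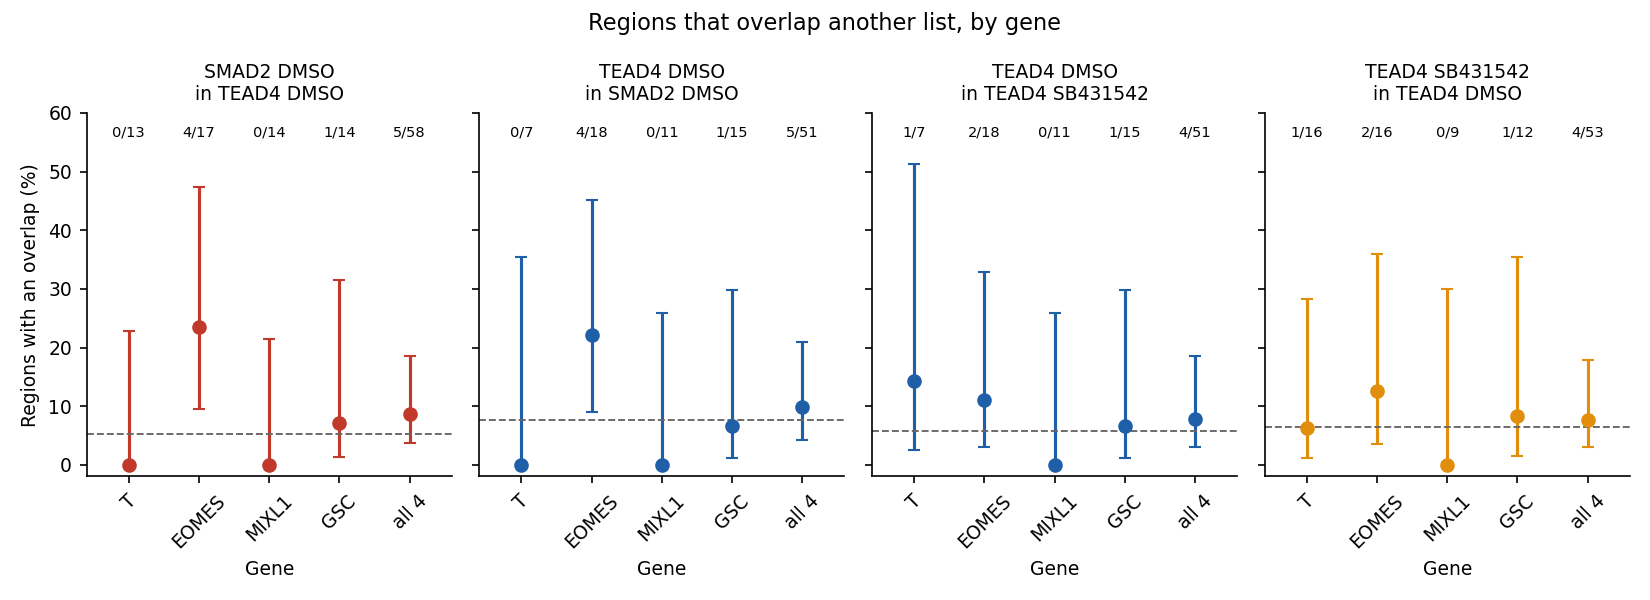
Percent of regions that overlap another list by at least 1 bp (y axis), by gene and for the 4 genes together, with counts above. Bars are 95% Wilson intervals, dashed lines the share over the whole list, and EOMES is above the line for SMAD2 with TEAD4 in DMSO.

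Median distances between lists differed by gene and by pair of lists, given as a description without a test. The median gap from a SMAD2 region to the nearest TEAD4 region in DMSO was 0.801 kb at EOMES and 2.78 kb at GSC, against 3.83 kb at MIXL1, 6.15 kb at T and 3.10 kb over the list. Within 500 bp of TEAD4 were 5 of 17 SMAD2 regions at EOMES, 4 of 14 at GSC, 0 of 13 at T and 0 of 14 at MIXL1, and 15.4% of the list. Over the 4 genes this was 9 of 58 (15.5%, 8.38 to 26.9%), near the list share. The counts of single genes are small and carry no interval. TEAD4 density in DMSO also differed, 1.65-fold at EOMES and 0.618-fold at T, and its part in these gaps was not tested. At GSC the SMAD2 region chr14:95241751-95241899 lay directly beside TEAD4 at chr14:95241901-95242299, 1 bp apart as printed and not counted as an overlap. In the other direction, from TEAD4 in DMSO to SMAD2, the median was 1.03 kb at EOMES, 1.95 kb at GSC, 3.15 kb at MIXL1 and 4.30 kb at T, against 1.80 kb over the list. From SMAD2 to TEAD4 in SB431542 it was 1.96 kb at EOMES, 2.65 kb at T, 3.48 kb at MIXL1 and 3.87 kb at GSC (list 3.53 kb). GSC was thus not among the closer genes in that direction. In the reverse direction, from TEAD4 in SB431542 to SMAD2, GSC had the shortest median of the 4 genes, 1.75 kb (list 2.02 kb). From TEAD4 in DMSO to TEAD4 in SB431542 the median was 2.06 kb at T and 2.26 kb at MIXL1 but 8.16 kb at GSC (list 3.42 kb). From TEAD4 in SB431542 to TEAD4 in DMSO the median gap was 20.1 kb at GSC, against 2.0 kb at EOMES, 3.06 kb at MIXL1, 4.91 kb at T and 3.27 kb over the list.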

How the data were processed

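Region lists of 3 of 8 labelled groups were used. Per the labels' protocols, formaldehyde-fixed chromatin was sonicated. Coordinates are on hg19, which the submitters' processing notes name. Not given in the sources used here: read depth, how reads were aligned, and the caller with its settings. The deposited files hold a chromosome, a start and an end per region. Starts are printed raised by 1 bp, as for half-open intervals. If the ends were inclusive, printed widths and overlaps would each be up to 1 bp short. Counts under that reading are in the closing section. Regions of different lists were paired when they shared at least 1 bp. Gene bodies came from the rule that defines the set. The genes and all choices were made with earlier results of these data known. Named are all regions within 5 kb of a gene, the first row of each list, the regions nearest the start, all overlapping pairs and, after their values were seen, a few others. Gene strands and promoter bases came from RefSeq tables on GRCh38.p14, whose coordinates were not mixed with hg19. The genes LHX1, FGF8, WNT3, TBX6, CER1, HHEX, MESP1, FOXA2 and SOX17 were to be counted too, but need hg19 positions and were not analysed here. Mean densities are over 100 kb stretches without chromosomes Y and M. Shares carry 95% Wilson and counts exact 95% Poisson intervals, which cover counting error only. Alternatives were other windows, overlap rules, first rows and removal of the widest 1% of regions. The functions were tested on simulated data. Python 3.11.15, NumPy 2.4.6, pandas 2.3.3, SciPy 1.17.1 and matplotlib 3.10.9 were used.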

Additional observations from a re-analysis of the deposited data

How the results depend on the processing

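Of 72 densities recomputed, 60 stayed within the interval of the reported value, among them all with 100 kb windows and all without the widest 1%. Values are folds of the list mean. With 10 kb windows SMAD2 at EOMES came to 1.77, TEAD4 in DMSO at GSC to 4.02 and at MIXL1 to 0, and TEAD4 in SB431542 at GSC to 0.494. With 20 kb windows TEAD4 in DMSO at T came to 0.192. With the first 50% of rows TEAD4 in SB431542 at MIXL1 came to 0.420. With the first 10% of rows TEAD4 in DMSO came to 4.59 at EOMES, 0 at MIXL1 and 0 at GSC. SMAD2 came to 0 at EOMES, and TEAD4 in SB431542 to 0 at MIXL1 and 3.22 at GSC. Of the 72 intervals 0 lay below 1, so the values of 0 are not distinguishable from the list mean.

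Overlap shares over the 4 genes moved more often, in 26 of 60 values, and stricter rules and shorter lists lower them by construction. With 50% of both regions required, SMAD2 with TEAD4 in DMSO, SMAD2 with TEAD4 in SB431542 and both reverse directions were 0%, TEAD4 of DMSO in SB431542 was 1.96% and the reverse 1.89%. With midpoints within 100 bp the first pair of lists gave 3.45 and 3.92%, and the TEAD4 lists 1.96 and 1.89%. With the first 10% of rows all 6 shares were 0%, and with the first 50% those with SMAD2 were 0%. With 10 kb windows TEAD4 of DMSO in SB431542 was 18.8% (list 5.69%), the reverse 30.0% (list 6.39%), both intervals above the list share. SMAD2 with TEAD4 in SB431542 was 0% in both directions (upper limits 16.1 and 27.8%, lists 3.39 and 5.46%). With 20 kb windows TEAD4 of SB431542 in DMSO was 20.0% (list 6.39%). A gap of up to 500 bp gave 12.1% for SMAD2 with TEAD4 in SB431542, against 12.5% of the list. Chosen after seeing the data, reading ends as inclusive left all 6 counts at 5, 5, 4, 4, 2 and 2. Not counting rows whose sorted run crosses the 10% limit as inside it changed TEAD4 in DMSO at EOMES alone, to 22.2%. No paired analysis was possible because no group had more than 1 library, and none could be left out. Depth is unknown, so absence from a list says only that no region was called.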

Other observations

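Neighbouring rows of a list were in places neighbours on the chromosome, as sorted runs imply. TEAD4 rows 173017, 173018 and 173019 of DMSO cells lay 33.7 kb upstream, 4.02 kb upstream and 44.5 kb downstream of the EOMES start, all in a run of 8939 rows. SMAD2 rows 326527 and 326528 both lay downstream of GSC, and rows 251973 and 251974 of TEAD4 in SB431542 lay on either side of MIXL1. The near-equal row numbers of such regions therefore carry no order of strength.

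The 4 genes differed in which list had the earliest row. By place in its list this was TEAD4 in DMSO at EOMES (1.06%) and T (4.41%), TEAD4 in SB431542 at GSC (1.31%) and SMAD2 at MIXL1 (4.97%). Each rests on a single region of a single library, and the order between lists was not tested.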
